A study of Mus musculus with 12 samples.

Results

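The genes whose transcript level changed in the same direction in both genotypes when mouse skin was given zinc oxide nanoparticles (ZnO NPs) are described here. The comparison set 6 skin libraries from mice given ZnO NPs against 6 from mice given vehicle, with genotype as a block, so that the value for a gene is the mean of its 2 within-genotype changes. All 12 libraries of the study entered. Of 18822 genes tested, 1814 passed the test in both genotypes with the same sign, 598 upward and 1216 downward, and these are called shared below. The study asked how ZnO NPs act on skin whose barrier is damaged.

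All mice were C57BL/6, labelled as 3 months old, and skin was taken on day 14 of treatment. WT mice were wild type. KO mice were labelled Cdc42-/-. The study describes a keratinocyte-specific knockout of *Cdc42*, a small GTPase of cell polarity, and Cre driven by the K5 promoter. That promoter is active in basal keratinocytes and hair follicle epithelium, so that the other cells of the skin should keep the gene. The groups WT and KO received the vehicle (normal saline containing HPMC). Those labelled with ZnO NPs, WT+ZnO NPs and KO+ZnO NPs, received the particles at 2 mg/cm² on shaved back skin. Each group held 3 libraries from 3 mice of whole skin. Each within-genotype change thus compared 3 libraries with 3 others, and no library entered both.

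Zinc that enters a cell is bound by metallothioneins, small cysteine-rich proteins whose genes are switched on by the zinc-sensing factor encoded by *Mtf1* through metal response elements in their promoters. The epidermis renews itself by division in its basal layer, and its outer cells build a cornified envelope and a lipid barrier, while sebaceous glands in the dermis secrete fatty acid and sterol esters. Below and within the epidermis, macrophages, dendritic cells and lymphocytes sample the tissue, and they hold transcripts that keratinocytes and fibroblasts lack.

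The 250 bases before the transcription start of 5 genes, from the RefSeq promoter table on GRCm38.p6, are printed with the letters searched for in capitals. The genes belong to the zinc, cell cycle and antigen presentation lists below, and *Slc30a1* among them was not shared. The metallothionein genes *Mt1* and *Mt2* and the zinc exporter gene *Slc30a1* are shown for the metal response element core, searched as TGCACNC and TGCGCNC on both strands. The 3 windows lie at chr8:94178839-94179088 on the plus strand, chr8:94172368-94172617 on the plus strand and chr1:191906531-191906780 on the plus strand.
Mt1: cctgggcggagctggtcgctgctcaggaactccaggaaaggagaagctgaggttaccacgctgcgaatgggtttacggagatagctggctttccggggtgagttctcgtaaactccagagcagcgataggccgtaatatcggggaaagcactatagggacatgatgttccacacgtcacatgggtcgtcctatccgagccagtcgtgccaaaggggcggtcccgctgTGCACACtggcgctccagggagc
Mt2: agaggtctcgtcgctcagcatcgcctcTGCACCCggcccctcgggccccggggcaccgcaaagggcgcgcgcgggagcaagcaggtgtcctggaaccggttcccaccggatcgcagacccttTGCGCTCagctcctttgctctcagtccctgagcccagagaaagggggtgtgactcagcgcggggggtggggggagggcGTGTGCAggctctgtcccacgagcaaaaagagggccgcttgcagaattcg
Slc30a1: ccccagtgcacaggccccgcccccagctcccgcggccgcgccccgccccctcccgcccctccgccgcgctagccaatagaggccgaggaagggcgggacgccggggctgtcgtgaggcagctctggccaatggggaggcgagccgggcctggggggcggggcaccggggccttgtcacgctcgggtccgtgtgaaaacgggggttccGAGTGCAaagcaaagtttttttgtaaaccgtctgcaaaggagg
*Mki67*, the gene of the proliferation marker Ki-67, is shown for CCAAT, the CCAAT box, and for TTTGAA, the cell cycle homology region, both searched on both strands, at chr7:135716380-135716629 on the minus strand.
Mki67: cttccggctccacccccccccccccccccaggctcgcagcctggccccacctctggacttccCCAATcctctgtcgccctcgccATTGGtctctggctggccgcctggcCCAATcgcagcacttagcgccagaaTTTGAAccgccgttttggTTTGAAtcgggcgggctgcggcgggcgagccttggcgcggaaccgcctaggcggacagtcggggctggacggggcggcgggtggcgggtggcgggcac
*H2-Aa*, which encodes a chain of the antigen-presenting MHC class II molecule, is shown for the Y box, searched as CTGATTGG on both strands, at chr17:34287824-34288073 on the minus strand. It was picked for printing after its values were seen.
H2-Aa: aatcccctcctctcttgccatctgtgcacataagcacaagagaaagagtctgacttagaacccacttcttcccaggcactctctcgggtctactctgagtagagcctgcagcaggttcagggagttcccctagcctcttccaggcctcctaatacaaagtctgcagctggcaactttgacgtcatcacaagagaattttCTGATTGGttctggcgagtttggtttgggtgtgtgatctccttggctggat
The *Mt1* window held 1 match to the metal response element core, that of *Mt2* held 3 and that of *Slc30a1* held 1. At least 1 such match was found in 21.4% of all 32851 promoter windows and in 27.9% of the windows of genes tested. CCAAT was held by 10 of 12 windows of the shared cell cycle genes, against 34.4% of the windows of genes tested, and TTTGAA by 4 of 12, against 11.5%. Over the whole cell cycle list, shared or not, 24 of 29 windows held CCAAT and 8 of 29 held TTTGAA. The Y box letters were held by 2 of 7 windows of the shared MHC class II and dendritic cell genes and by 2 of 11 of the whole list, against 4.92% of the windows of genes tested. The windows of the cell cycle list held them in 5 of 29 cases. Since the Y box contains a reversed CCAAT, the same letters also count as a CCAAT match.

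Several differences between libraries touch every result. Total counts lay between 21076320 and 28867802. *Krt5* and *Krt14* of basal keratinocytes (at least 1390 and 2210 CPM) and *Col1a1* of fibroblasts (at least 996 CPM) were high in all 12 libraries. CPM, the unit of every level below, are counts scaled to a common library size by TMM factors. *Cdc42* read 606, 628 and 616 CPM in WT, 311, 350.1 and 317 CPM under the label WT+ZnO NPs, 415, 464 and 439.8 CPM in KO and 365, 453 and 314 CPM under the label KO+ZnO NPs. Those labelled WT+ZnO NPs thus lay below KO in the transcript that the label says is intact, and the libraries given ZnO NPs are therefore named by their label. The summed level of 4 Y-linked genes was 192 to 242 CPM in the 3 libraries with the label WT+ZnO NPs, in KO 1 and in KO+ZnO NPs 1, and at most 0.0504 CPM in the other 7, which held *Xist*, although the study describes its mice as female. The WT change is therefore confounded with sex, and sex and ZnO NPs cannot be told apart there, while the KO change had 1 library with Y-linked transcripts on each side. Genes of the inner root sheath, an epithelial layer of growing hair follicles, added up to 4.56 to 8.2 CPM in WT and 22.8 CPM in KO 2, and to at least 223 CPM in the other 8 libraries. The sum of skeletal muscle genes ranged from 2940 to 39700 CPM.

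In the mean of both genotypes 8825 genes passed the test (edgeR quasi-likelihood, adjusted p below 0.05), which is 46.9% of those tested, 4435 upward (23.6%) and 4390 downward (23.3%). The change under the label WT+ZnO NPs against WT passed for 8085 genes (43%; 20.8% upward and 22.1% downward) and that under the label KO+ZnO NPs against KO for 2759 (14.7%; 6.57% upward and 8.09% downward). The 1814 shared genes were 65.7% of the KO calls and 22.4% of the WT calls, and 40 more genes passed in both with opposite signs. The shared set was 9.64% of the genes tested, and falls (6.46%) made up more of it than rises (3.18%). These shares of all genes tested (23.6% and 23.3% for the mean change, 3.18% and 6.46% for shared genes, upward and downward) are the background of each gene list below. No list was tested against them, and nothing is read from a share near them. Falls were also larger, with median log2 changes of -1.94 in WT and -1.30 in KO, against 0.99 and 0.85 for the rises. All 6 treated libraries lay above all 6 vehicle libraries for 520 of the 598 shared rises (6.99% of all genes tested did so) and below them for 1070 of the 1216 shared falls (9.37% of all genes tested). The same libraries chose these genes, so that both counts only describe them. A difference of more than 2-fold in both genotypes was reached by 202 rises and 766 falls. The size of the change differed between genotypes (interaction, adjusted p below 0.05) for 235 of the 1814, each larger in the WT comparison, and for 8.68% of all genes tested.

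The number of shared genes rested on the KO libraries. Without KO 2, which held the lowest muscle level of all libraries and the highest macrophage level of the KO libraries, 381 were left, without KO 3 824, and without KO+ZnO NPs 2 1066. With the muscle level of each library in the edgeR fit, an alternative chosen after the libraries were seen to differ in it, 0 genes were shared and 0 passed in KO, where 2951 had an unadjusted p below 0.05. With the inner root sheath level in the fit 682 were shared, and with the level of the Y-linked genes 1188. In the 4 libraries of the KO comparison without Y-linked transcripts, fitted alone with edgeR, 0 genes passed, and 4013 (22.6%) had an unadjusted p below 0.05.

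**Figure D1:**
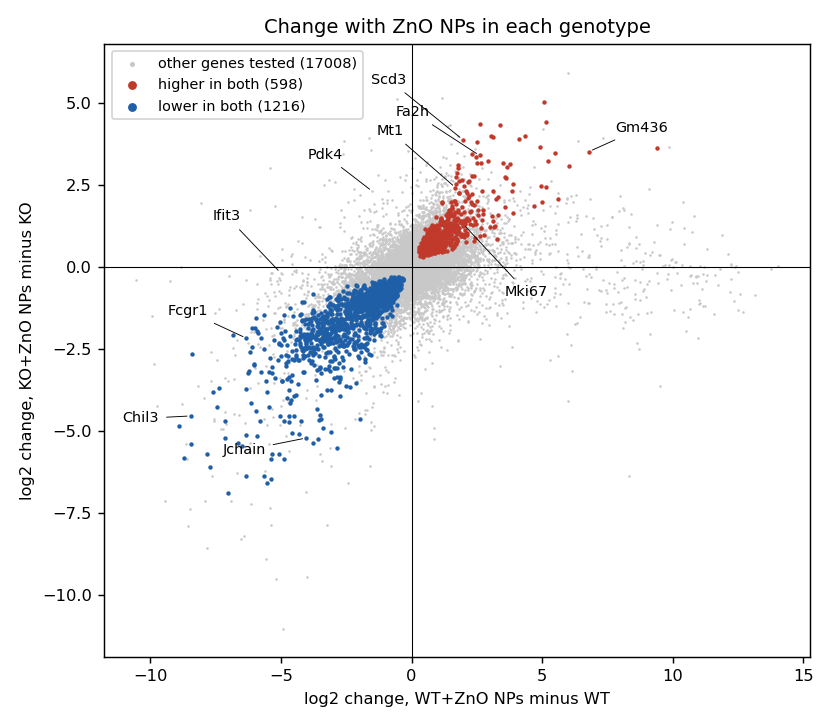
Each point is 1 of 18822 genes, with the log2 change from WT to the label WT+ZnO NPs on the x axis and from KO to the label KO+ZnO NPs on the y axis. The 598 shared rises (red) lie in the upper right and the 1216 shared falls (blue) reach further from 0 in the lower left, while many genes with large WT changes lie near 0 on the KO axis (grey).

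Among genes that handle zinc, the metallothionein genes *Mt1* and *Mt2* rose in both genotypes. *Mt1*, whose product binds zinc ions, read 144, 279.8 and 165 CPM in WT, 354, 808 and 728 CPM under the label WT+ZnO NPs, 183, 167 and 125 CPM in KO and 779, 1394 and 361 CPM under the label KO+ZnO NPs. Every library labelled with ZnO NPs lay above every vehicle library, the lowest treated value being 354 CPM and the highest vehicle value 279.8 CPM. Its mean change was 2.05 ± 0.34 (SE, adjusted p = 0.000836) on the log2 scale, where values after ± are approximate SEs from the F statistic, with 1.68 ± 0.47 in WT and 2.42 ± 0.48 in KO, and the interaction had an adjusted p of 0.501. *Mt2*, which encodes a related metallothionein, read 0.839, 2.18 and 0.722 CPM in WT, 3.24, 5.3 and 8.19 CPM under the label WT+ZnO NPs, 1.57, 1.37 and 0.793 CPM in KO and 6.33, 13.1 and 3.14 CPM under the label KO+ZnO NPs, and again the treated libraries lay above all vehicle libraries. Its mean log2 change was 2.37 ± 0.43 (SE, adjusted p = 0.00145), and it overlaps *Gm45774* on the other strand, so that its counts are uncertain, since the sources used here do not say whether counting used strand. *Slc30a1*, which pumps zinc out of the cell, read 69, 69.5 and 67.3 CPM in WT, 87, 196 and 201 CPM under the label WT+ZnO NPs, 117, 81 and 112 CPM in KO and 169, 146 and 59.2 CPM under the label KO+ZnO NPs. Here the groups overlapped in KO, where the change was 0.27 ± 0.38 (adjusted p = 0.648), against 1.23 ± 0.38 in WT, so that it was not shared. *Slc39a1*, a zinc importer, was lower, at 147, 189 and 166 CPM in WT, 80.8, 84.1 and 78.2 CPM under the label WT+ZnO NPs, 154, 174 and 137 CPM in KO and 117, 125 and 105 CPM under the label KO+ZnO NPs, with a mean log2 change of -0.74 ± 0.09 (SE, adjusted p = 0.000157) and an adjusted p of 0.049 in KO. Of the 26 zinc genes tested, 10 rose and 7 fell in the mean change with a median of 0.17 (all genes 0.06), and *Mt1*, *Mt2* and *Slc39a1* were shared. Of all genes tested 23.6% rose, 23.3% fell and 9.64% were shared. Upward, 2 of the 26 were shared, against 3.18% of all genes tested, and downward 1, against 6.46%.

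Counts of rises and falls differed between lists of stress genes. Of 23 targets of NRF2, the transcription factor of the antioxidant response, 3 rose and 6 fell, where 23.6% of all genes tested rose and 23.3% fell. *Gclm*, a subunit of the enzyme that starts glutathione synthesis, rose by 0.86 ± 0.09 (SE, adjusted p = 5.49e-05) on the log2 scale and was shared, at 32.2, 39.2 and 41.6 CPM in WT, 77.7, 89.9 and 83 CPM under the label WT+ZnO NPs, 53.1, 50.4 and 43 CPM in KO and 69, 77.6 and 72.5 CPM under the label KO+ZnO NPs. *Hmox1*, which breaks down haem, had a mean log2 change of -2.48 ± 0.34 (SE, adjusted p = 0.000262), with -1.44 ± 0.46 in KO (adjusted p = 0.0582), and *Srxn1*, named after its values were seen, was the other shared member, with -0.92. Of 19 antioxidant enzyme genes 2 rose and 5 fell, and the extracellular superoxide dismutase gene *Sod3* was the shared one, with -2.11 ± 0.19 (SE, adjusted p = 2.95e-05). Of 22 genes of the unfolded protein and integrated stress response 1 rose and 14 fell, at a median of -0.35, and the shared member was *Edem1*, which helps to remove misfolded proteins, with -0.93 ± 0.11 (SE, adjusted p = 9.57e-05). Among 12 heat shock genes 4 rose, 0 fell and 0 were shared; *Hspe1*, a mitochondrial chaperonin, had 0.66 ± 0.13 (SE, adjusted p = 0.00231). Of 24 apoptosis and p53 genes 3 rose and 10 fell, and the shared ones were *Bid* (-1.39), which links death receptors to mitochondria, and *Cflar* (-1.03), an inhibitor of caspase-8. The shared members of these lists, at most 1 upward and 2 downward in each, are near or below the background of 3.18% upward and 6.46% downward, so that they are given as single genes and not as a result about their lists. The mean-change counts of the NRF2 and antioxidant lists are likewise near or below the 23.6% and 23.3% of all genes tested. Nothing is read from them.

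The 12 largest shared rises included enzymes of lipid synthesis beside genes of other kinds, and no list was tested for enrichment among them. The rule ranked protein-coding shared genes by the smaller of their 2 changes and asked for groups that do not overlap within either genotype, so that the separation of these genes is given as a description. *Fa2h*, which adds a hydroxyl group to fatty acids, read 190.2, 64.1 and 245 CPM in WT, 1579, 670.5 and 782 CPM under the label WT+ZnO NPs, 104, 46.2 and 56.3 CPM in KO and 368, 299 and 1507 CPM under the label KO+ZnO NPs. Its log2 change was 2.60 ± 0.70 in WT and 3.40 ± 0.73 in KO. *Elovl3*, a fatty acid elongase of sebaceous glands, read 69.9, 26.8 and 80.7 CPM in WT, 486, 179.6 and 207 CPM under the label WT+ZnO NPs, 53.8, 15.5 and 26.9 CPM in KO and 161, 132 and 359 CPM under the label KO+ZnO NPs. Both genes were higher in all 6 treated libraries than in any vehicle library, and WT+ZnO NPs 1 and KO+ZnO NPs 3 were the highest of their groups. *Cers4*, a ceramide synthase, changed by 2.38 ± 0.55 in WT and 2.76 ± 0.56 in KO. *Pdss1*, which makes the side chain of coenzyme Q, changed by 2.06 ± 0.39 and 2.02 ± 0.39. The rest of the 12 were *Gm436* (6.80 and 3.52), *Serpina3b* (3.10 and 3.97), *Gm13178* (2.65 and 3.18), *Acoxl* (2.52 and 3.81), *Panx3* (2.32 and 3.43), *Lhpp* (2.71 and 2.31), *Fam57b* (2.33 and 2.22) and *Tmem45b* (2.19 and 2.16), each as the log2 change in WT and then in KO. *Gm436* and *Gm13178* are neighbours on chromosome 4 (144669937 to 144686368 and 144703191 to 144721404 on GRCm38, minus strand). *Fam57b* overlaps *Aldoa* and *Lhpp* overlaps *Fgfr2* on the other strand, *Cers4*, *Pdss1*, *Tmem45b*, *Acoxl*, *Elovl3* and *Far2* each overlap another annotated gene, and *Serpina3b* has near-identical relatives, so that these counts are uncertain.

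Sebaceous gland and cholesterol genes rose in part. Of 19 genes of sebaceous glands and fatty acid synthesis 10 rose and 2 fell in the mean change, at a median of 0.70, and 4 were shared, all upward, against 3.18% of all genes tested. They were *Scd3*, a fatty acid desaturase of sebaceous glands, *Elovl3*, *Elovl5*, which elongates unsaturated fatty acids, and *Far2*, which makes the fatty alcohols of wax esters. *Scd3* read 111, 52 and 74.9 CPM in WT, 411, 273 and 242 CPM under the label WT+ZnO NPs, 8.59, 4.3 and 5.15 CPM in KO and 59.7, 27.1 and 179 CPM under the label KO+ZnO NPs. Its KO libraries were lower than its WT libraries, and its log2 change was 1.96 ± 0.58 in WT and 3.88 ± 0.64 in KO. *Far2* changed by 1.74 ± 0.64 and 2.87 ± 0.67, and *Elovl5* by 1.54 ± 0.41 and 1.80 ± 0.42. Among 19 genes of cholesterol synthesis 13 rose and 1 fell in the mean change, with medians of 1.21 in WT and 0.122 in KO. Upward, 12 passed in WT and 3 in KO, against 20.8% and 6.57% of all genes tested. Among the 2 shared members was *Msmo1*, a sterol oxidase of the pathway, which read 231, 132 and 237 CPM in WT, 811, 377 and 487 CPM under the label WT+ZnO NPs, 141, 162 and 130.4 CPM in KO and 278, 250.2 and 784 CPM under the label KO+ZnO NPs, with a mean log2 change of 1.54 ± 0.31 (SE, adjusted p = 0.00278). *Lss* passed in WT (2.05 ± 0.28) and not in KO (0.73 ± 0.27, adjusted p = 0.0877), and the difference itself had an adjusted p of 0.056. The summed sebaceous level was 6610 to 8950 CPM in WT, 8150 to 14300 CPM under the label WT+ZnO NPs, 5550 to 11400 CPM in KO and 3840 to 24300 CPM in those labelled KO+ZnO NPs, so that the groups overlapped within both genotypes. The sum of KO+ZnO NPs 2 lay below every vehicle library, against the direction of the rises, and KO+ZnO NPs 3 held the highest mean level of the list. KO+ZnO NPs 3 and WT+ZnO NPs 1 also held the highest mean levels of skeletal muscle genes (8.34 and 8.86 log2 CPM), and a link was not tested.

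Cell cycle genes rose in the mean change. Of 33 tested, 28 rose and 0 fell, at a median of 1.27 (1.33 in WT and 1.08 in KO). Upward, 24 of them passed in WT, 15 passed in KO and 13 were shared, where 3.18% of all genes tested were shared upward. *Mki67* read 74.7, 73.4 and 156 CPM in WT, 259, 385 and 548 CPM under the label WT+ZnO NPs, 96.8, 83.3 and 162 CPM in KO and 257, 317 and 273 CPM under the label KO+ZnO NPs, with the lowest treated library at 257 CPM and the highest vehicle library at 162 CPM. The mean log2 change of *Mki67* was 1.64 ± 0.26 (SE, adjusted p = 0.000693). *Tyms*, which makes the thymidylate needed for DNA, changed by 1.00 ± 0.19 in WT and 1.16 ± 0.20 in KO. *Rrm2*, a subunit of ribonucleotide reductase, changed by 1.64 ± 0.26 and 1.08 ± 0.26. *Mcm7*, part of the helicase that opens DNA for replication, changed by 1.03 ± 0.20 and 0.89 ± 0.20. The summed level was 956 to 1440 CPM in WT, 1600 to 3120 CPM under the label WT+ZnO NPs, 771 to 1220 CPM in KO and 1690 to 2030 CPM in those labelled KO+ZnO NPs, with no overlap within either genotype.

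Genes of energy and protein production rose in the mean change by small amounts. Of 78 nuclear-encoded subunits of oxidative phosphorylation 67 rose and 0 fell, at a median of 0.51, which was 0.25 in WT and 0.72 in KO. Upward, 20 of the 78 passed in WT and 66 in KO, and 19 were shared, where 23.6% of all genes tested rose in the mean change and 3.18% were shared upward. Of all genes tested 20.8% passed upward in WT and 6.57% in KO, so that the WT count of this list is near its background. *Cox5b*, a subunit of cytochrome c oxidase, read 156, 151 and 152 CPM in WT, 233, 189 and 215 CPM under the label WT+ZnO NPs, 119.6, 108 and 106 CPM in KO and 169.6, 234 and 229 CPM under the label KO+ZnO NPs. Its log2 change was 0.47 ± 0.14 in WT and 0.92 ± 0.14 in KO. *Ndufv1* of complex I had a mean log2 change of 0.65 ± 0.09 (SE, adjusted p = 0.000387), *Atp5h* of ATP synthase one of 0.60 ± 0.09 (SE, adjusted p = 0.000521) and *Ndufs6*, which overlaps *Mrpl36* on the other strand, one of 0.75 ± 0.10 (SE, adjusted p = 0.000298). Of 13 subunits encoded in the mitochondrial genome 8 rose, 3 passed upward in WT and 5 in KO, and *mt-Nd4* (0.79 ± 0.17, adjusted p = 0.00336) and *mt-Co3* (0.88 ± 0.13, adjusted p = 0.0004) were shared. Each of these 2 genes overlaps a neighbour. Of 81 cytosolic ribosomal protein genes 56 rose and 1 fell, at a median of 0.42, 10 passed upward in WT and 39 in KO, and 7 were shared, with *Rpl38* at 0.63 ± 0.10 (SE, adjusted p = 0.000805), *Rplp2* at 0.72 ± 0.13 (SE, adjusted p = 0.00119), *Rpl27* at 0.83 ± 0.15 (SE, adjusted p = 0.0012) and *Rpl13a* at 0.95 ± 0.13 (SE, adjusted p = 0.000331). The ribosomal median was 0.217 in WT and 0.625 in KO, and the WT count lies below the 20.8% of all genes tested that passed upward in WT. Processed copies of ribosomal protein genes elsewhere in the genome make such counts uncertain. Genes of skeletal muscle, a tissue rich in mitochondria, rose beside them in 23 of 29 cases with 0 shared, and their sums went from 9760 to 11500 CPM in WT to 11100 to 39700 CPM under the label WT+ZnO NPs and from 2940 to 9490 CPM in KO to 5460 to 29800 CPM in those labelled KO+ZnO NPs. These ranges overlap within each genotype. With the muscle level in the fit the mean log2 change was 0.47 for *Cox5b*, 0.44 for *Ndufv1*, 0.45 for *Atp5h* and 0.47 for *Ndufs6*, and all 4 passed, while *mt-Nd4* had 0.49 and an adjusted p of 0.0861 by edgeR.

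**Figure D2:**
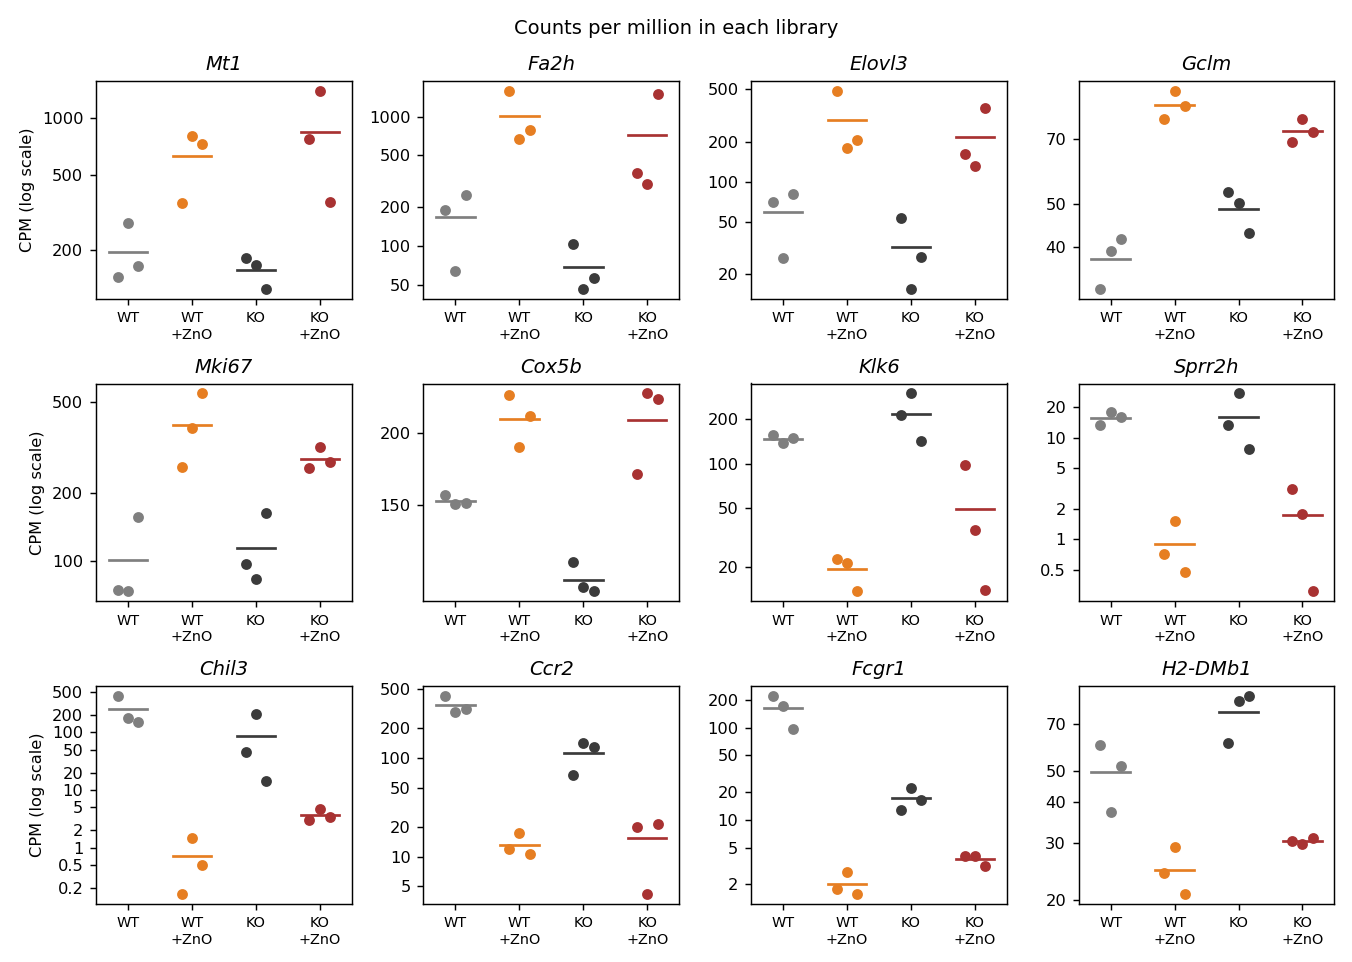
Points are single libraries and bars the mean of 3 libraries of a group, in CPM on a log axis, for 12 shared genes; the groups with ZnO are named by their label. *Mt1*, *Fa2h*, *Elovl3*, *Gclm*, *Mki67* and *Cox5b* rose and *Klk6*, *Sprr2h*, *Chil3*, *Ccr2*, *Fcgr1* and *H2-DMb1* fell, and in each of the 12 the treated libraries do not overlap the vehicle libraries of their genotype.

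Transcripts of macrophages fell in both genotypes. All 17 tested fell in the mean change, at a median of -2.84, and 14 were shared, against 6.46% of all genes tested. *Adgre1*, which encodes the macrophage marker F4/80, read 267, 359 and 252 CPM in WT, 6.08, 13.9 and 6.37 CPM under the label WT+ZnO NPs, 88.1, 149 and 139 CPM in KO and 30.5, 32 and 11.3 CPM under the label KO+ZnO NPs. Its mean log2 change was -3.70 ± 0.32 (SE, adjusted p = 2.61e-05). *Fcgr1*, a high-affinity antibody receptor of monocytes and macrophages, read 221, 170.1 and 95.5 CPM in WT, 1.8, 2.7 and 1.58 CPM under the label WT+ZnO NPs, 12.8, 22 and 16.4 CPM in KO and 4.06, 4.08 and 3.18 CPM under the label KO+ZnO NPs, and its WT vehicle libraries were the highest by far. The change was -6.32 ± 0.38 in WT and -2.18 ± 0.32 in KO, and the difference passed its test (adjusted p = 0.00186). *Cd68*, a lysosomal protein of macrophages, had a mean log2 change of -3.41 ± 0.30 (SE, adjusted p = 2.8e-05), and *C1qb*, a chain of the complement protein C1q, had -2.78 ± 0.26 (SE, adjusted p = 3.55e-05). Summed macrophage genes lay between 5430 and 7080 CPM in WT, 311 and 655 CPM under the label WT+ZnO NPs, 2750 and 5000 CPM in KO and 552 and 1290 CPM in those labelled KO+ZnO NPs. In bulk skin, fewer cells of a type and less RNA per cell cannot be told apart.

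The 12 largest shared falls included genes that myeloid cells express. *Chil3*, a chitinase-like protein that macrophages secrete, read 425, 179 and 147 CPM in WT, 0.16, 1.51 and 0.514 CPM under the label WT+ZnO NPs, 44.8, 202 and 14.5 CPM in KO and 3.05, 4.69 and 3.44 CPM under the label KO+ZnO NPs. The highest treated library held 4.69 CPM and the lowest vehicle library 14.5 CPM. Its log2 change was -8.45 ± 1.16 in WT and -4.55 ± 0.95 in KO. *Ly6c2*, a surface protein of inflammatory monocytes with a near-identical relative, read 343, 64.5 and 41.5 CPM in WT, 0.72, 1.46 and 0.158 CPM under the label WT+ZnO NPs, 3.91, 20.7 and 30.7 CPM in KO and 1.18, 0.857 and 1.87 CPM under the label KO+ZnO NPs. *Jchain*, which joins the chains of IgA and IgM, read 13.3, 54.8 and 17.9 CPM in WT, 0.8, 2.06 and 2.41 CPM under the label WT+ZnO NPs, 46, 281 and 521 CPM in KO and 9.9, 2.87 and 9.84 CPM under the label KO+ZnO NPs, so that KO 2 and KO 3 were the highest. Among the others, the log2 changes in WT and KO were -6.35 and -3.73 for the chemokine receptor gene *Ccr1*, -5.34 and -3.23 for the complement receptor gene *C3ar1*, -4.76 and -3.42 for the bacterial lipopeptide sensor *Tlr1*, -3.73 and -3.01 for the G-CSF receptor gene *Csf3r*, -4.96 and -3.49 for *Cd300lb*, -5.75 and -3.22 for *Pik3ap1*, -3.18 and -3.11 for the lectin gene *Cd209d* and -2.97 and -3.39 for the chemokine gene *Ccl12*. In all 12 genes every treated library lay below every vehicle library, a separation that the rule asked for within each genotype.

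Chemokine and antigen presentation genes fell with them. Of 48 chemokines and their receptors 1 rose and 34 fell, at a median of -1.72, and 13 were shared, against 6.46% of all genes tested. *Ccr2*, the receptor by which monocytes leave the blood, read 426, 295 and 316 CPM in WT, 11.8, 17.1 and 10.6 CPM under the label WT+ZnO NPs, 67.6, 141 and 129.7 CPM in KO and 20, 4.18 and 21.6 CPM under the label KO+ZnO NPs. *Ccr2* had a mean log2 change of -3.80 ± 0.38 (SE, adjusted p = 4.75e-05). *Ccl11*, which attracts eosinophils, had -2.56 ± 0.26 (SE, adjusted p = 4.67e-05). Of 15 genes of MHC class II, Langerhans cells and dendritic cells 0 rose and 14 fell, at a median of -1.35, and 10 were shared. *H2-DMb1*, which loads peptides onto MHC class II, read 60, 37.4 and 51.7 CPM in WT, 24.3, 29.1 and 20.9 CPM under the label WT+ZnO NPs, 60.9, 82.4 and 85.4 CPM in KO and 30.4, 29.8 and 31 CPM under the label KO+ZnO NPs. Its change was -1.01 ± 0.19 in WT and -1.33 ± 0.19 in KO. The costimulatory genes *Cd40* and *Cd80* had mean log2 changes of -2.46 ± 0.16 (SE, adjusted p = 8.41e-06) and -2.76 ± 0.29 (SE, adjusted p = 5.71e-05). *H2-Aa*, whose promoter is printed above, read 444, 228 and 333 CPM in WT, 108, 196 and 95.4 CPM under the label WT+ZnO NPs, 552, 764 and 821 CPM in KO and 293, 309 and 234 CPM under the label KO+ZnO NPs, with a mean log2 change of -1.35 ± 0.22 (SE, adjusted p = 0.000818). The median of this list was near equal in both genotypes, at -1.40 in WT and -1.35 in KO.

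Lymphocyte and granulocyte genes fell in part, where 23.3% of all genes tested fell and 6.46% were shared downward. Of 13 genes of B and plasma cells 12 fell and 1 rose, and the 5 shared were *Jchain*, *Igkc* (-4.11 ± 0.70, adjusted p = 0.00104), *Ighm* (-2.44 ± 0.34, adjusted p = 0.000336), *Cd79b* (-2.54 ± 0.36, adjusted p = 0.000357) and *Ighg2b* (-3.15), which encode antibody chains or, for *Cd79b*, a part of the B cell receptor. *Igkc* read 42.3, 121 and 50.4 CPM in WT, 1.68, 7.95 and 8.74 CPM under the label WT+ZnO NPs, 74.6, 548 and 906 CPM in KO and 22.3, 5.09 and 32.2 CPM under the label KO+ZnO NPs. The KO vehicle libraries reached the highest values and spread over more than 10 times among themselves. Of 16 T cell genes 12 fell, and the 4 shared were *Cd28* (-2.87 ± 0.41, adjusted p = 0.000347), a costimulatory receptor, *Il2ra* (-1.75 ± 0.28, adjusted p = 0.000651), a chain of the IL-2 receptor, the co-receptor gene *Cd4* (-2.26 ± 0.43, adjusted p = 0.00197) and *Cd8b1* (-1.67). In WT the summed level overlapped between the vehicle and the treated libraries both for B and plasma cell genes (526 to 800 CPM and 550 to 681 CPM) and for T cell genes (48.7 to 107 CPM and 48.8 to 63.8 CPM). Of 11 neutrophil genes 7 fell, and *Csf3r*, *Cxcr2* (-3.60 ± 0.61, adjusted p = 0.001), a chemokine receptor, and *Mmp8* (-2.27 ± 0.49, adjusted p = 0.00362), a collagenase, were shared. *S100a9*, a subunit of calprotectin, missed the test in KO (-3.31 ± 1.07, adjusted p = 0.0608). Of 9 mast cell genes 4 fell, 1 rose and 0 were shared, and *Cpa3*, a protease of mast cell granules, had -1.49 ± 0.76 in KO (adjusted p = 0.201), where KO+ZnO NPs 3 held 138 CPM, within the range of KO. *Ighg2b* and *Cd8b1* were named after their values were seen.

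Among signals of inflammation, 15 of 23 cytokine and alarmin genes fell and 1 rose, where 23.3% of all genes tested fell, and 2 were shared. They were *Il33* (-1.74 ± 0.30, adjusted p = 0.000991), an alarmin of epithelial and stromal cells, and *Il1rn* (-1.39 ± 0.22, adjusted p = 0.000704), the antagonist of the IL-1 receptor. Of 20 NF-kB targets 11 fell and 0 rose, at a median of -0.75, and the shared ones were *Nfkbie* (-1.70 ± 0.23, adjusted p = 0.000298), an inhibitor of NF-kB, and *Nfkb2* (-0.53 ± 0.12, adjusted p = 0.00563), which encodes an NF-kB subunit. *Nfkb2* read 57.1, 65.3 and 43.3 CPM in WT, 39.6, 44.9 and 34.6 CPM under the label WT+ZnO NPs, 57.6, 73.7 and 62.4 CPM in KO and 36.8, 44.5 and 48 CPM under the label KO+ZnO NPs, and the WT values overlapped those of the libraries labelled WT+ZnO NPs. Of 20 interferon-stimulated genes 19 fell in the mean change, but the median was -3.71 in WT and -0.34 in KO, and the 1 shared member was *Oas2* (-3.24 in WT and -0.97 in KO), named after its values were seen. *Oas1a* read 126, 89.7 and 86.3 CPM in WT, 4.64, 4.16 and 2.77 CPM under the label WT+ZnO NPs, 6.89, 13 and 9.42 CPM in KO and 6.15, 5.29 and 4.75 CPM under the label KO+ZnO NPs, with the WT vehicle libraries far above the other 9, and its interaction was 3.85 ± 0.38 (SE, adjusted p = 0.00124). The shared members of these 3 lists (2 of 23, 2 of 20 and 1 of 20) are near the 6.46% of all genes tested that were shared downward, and are given as single genes.

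**Figure D3:**
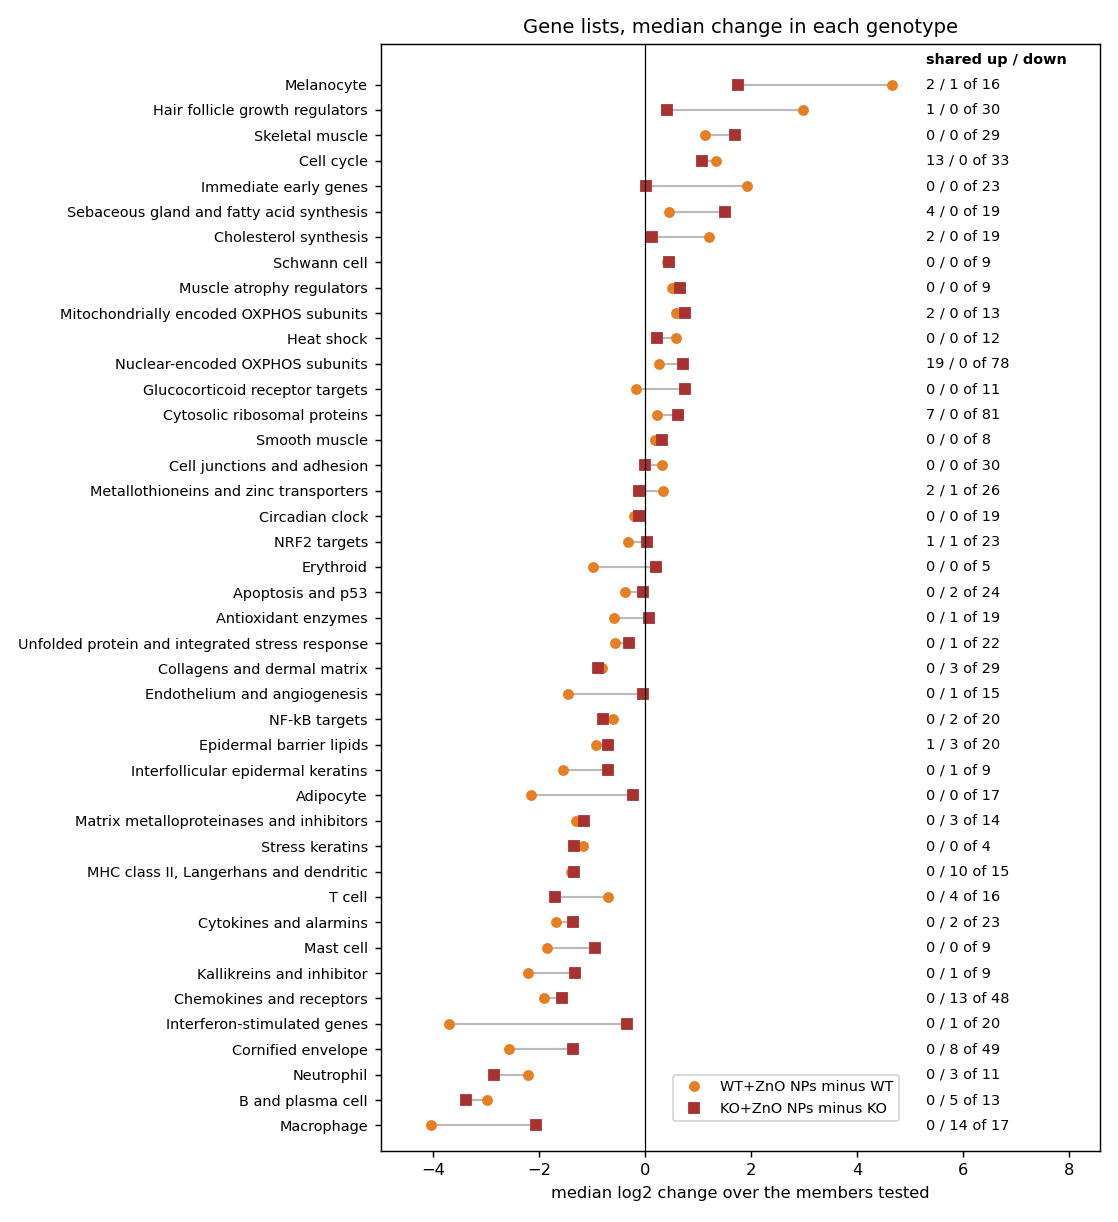
The x axis gives the median log2 change over the members tested of 42 gene lists, with circles for the WT comparison and squares for the KO comparison, and the numbers at the right count shared members up and down of those tested. Cell cycle (13 up) and nuclear-encoded subunits of oxidative phosphorylation (19 up) lie right of 0 in both genotypes, and macrophages (14 down), MHC class II (10 down) and chemokines (13 down) lie left of 0 in both; 3 hair keratin lists, whose WT libraries were near 0, and the Y-linked genes are not drawn.

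The barrier genes of the outer epidermis were lower in the mean change. Of 49 genes of the cornified envelope 0 rose and 31 fell, at a median of -2.11 (-2.58 in WT and -1.36 in KO), and 8 were shared, against 6.46% of all genes tested. All 8 belong to the Lce3 and Sprr2 families of small envelope proteins, whose members share sequence, so that reads could be lost or divided among them. *Sprr2h* read 13.3, 18.1 and 16.1 CPM in WT, 0.72, 1.51 and 0.475 CPM under the label WT+ZnO NPs, 13.3, 27.4 and 7.71 CPM in KO and 3.1, 1.76 and 0.305 CPM under the label KO+ZnO NPs. Its mean log2 change was -3.68 ± 0.52 (SE, adjusted p = 0.000355), and that of *Sprr2d* was -5.15 ± 0.72 (SE, adjusted p = 0.000316), although the libraries labelled WT+ZnO NPs held at most 0.228 CPM of it. Of 9 kallikreins and their inhibitor, the proteases that shed the outermost cells, 8 fell and 1 was shared. That was *Klk6*, at 156, 139 and 150.5 CPM in WT, 22.9, 21.4 and 13.8 CPM under the label WT+ZnO NPs, 214, 300.0 and 143 CPM in KO and 98.6, 35.7 and 14.1 CPM under the label KO+ZnO NPs. Its mean log2 change was -2.54 ± 0.40 (SE, adjusted p = 0.000654). *Spink5*, the inhibitor, passed in WT (-3.22 ± 0.65) and missed the test in KO (-1.80 ± 0.62, adjusted p = 0.0717). Of 9 interfollicular keratins 5 fell and 2 rose, and *Krt80* was the shared one, with -2.07 ± 0.31 (SE, adjusted p = 0.00046). *Krt10*, the keratin of cells that have left the basal layer, had -0.87 ± 0.48 in KO (adjusted p = 0.238).

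Most enzymes of the epidermal lipid barrier fell in the mean change. Of 20 tested 4 rose and 13 fell, at a median of -0.85, where 23.6% of all genes tested rose and 23.3% fell. The count of rises is thus near its background. Of the 20, 1 was shared upward, *Fa2h*, and 3 downward, among them *Elovl1* and *Ugcg*, against 3.18% and 6.46% of all genes tested. *Elovl1*, which makes the very long fatty acids of ceramides, read 224, 208 and 174 CPM in WT, 54.2, 62.8 and 61.7 CPM under the label WT+ZnO NPs, 144, 194 and 108 CPM in KO and 103, 60.7 and 60.9 CPM under the label KO+ZnO NPs. All treated libraries lay below all vehicle libraries. The mean log2 change was -1.38 ± 0.17 (SE, adjusted p = 0.000188), and *Elovl1* overlaps *Cdc20* on the other strand, a cell cycle gene that was shared upward. *Ugcg*, which makes glucosylceramide and was named after its values were seen, had -1.30 ± 0.22 (SE, adjusted p = 0.000893). For the cornified envelope list KO+ZnO NPs 1 lay near KO, with a mean log2 CPM of 5.26 against 5.61 to 6.87 in KO, while KO+ZnO NPs 2 and 3 had 2.19 and 2.84. The summed level of that list was 8570 to 16400 CPM in KO and 2510 to 11200 CPM under the label KO+ZnO NPs, so that these groups overlapped.

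In the dermis, 13 of 29 genes of collagens and matrix fell and 0 rose, at a median of -0.73, where 23.3% of all genes tested fell. In WT 8 of the 29 passed downward and 3 upward. The summed level was 15430 to 24690 CPM in WT and 12040, 44160 and 14920 CPM under the label WT+ZnO NPs, so that WT+ZnO NPs 2 lay above every WT library. The 3 shared of the 29, near the 6.46% of all genes tested that were shared downward, were *Pdgfra* (-1.72 ± 0.27, adjusted p = 0.000588) and *Pdgfrb* (-0.93 ± 0.15, adjusted p = 0.000749), growth factor receptors of fibroblasts and of cells around vessels, and *Fn1* (-1.70 ± 0.28, adjusted p = 0.000757), which encodes fibronectin. *Pdgfra* read 180.4, 259 and 304 CPM in WT, 31.6, 87 and 47.2 CPM under the label WT+ZnO NPs, 212, 274 and 244 CPM in KO and 102, 136 and 62.1 CPM under the label KO+ZnO NPs. Of 14 metalloproteinases and inhibitors 9 fell and 0 rose, and *Mmp19* (-2.28 ± 0.35, adjusted p = 0.000532), *Mmp3* (-1.53 ± 0.31, adjusted p = 0.00254) and the inhibitor *Timp2* (-1.23 ± 0.21, adjusted p = 0.000912) were shared. Of 15 genes of endothelium and angiogenesis 9 fell, with medians of -1.46 in WT and -0.05 in KO, and 1 of the 15, *Thbs2*, a matrix protein that restrains vessel growth, was shared, which is near the 6.46% of all genes tested that were shared downward. *Thbs2* read 339, 472 and 423 CPM in WT, 97.8, 161 and 68.2 CPM under the label WT+ZnO NPs, 606, 608 and 785 CPM in KO and 279.7, 312 and 227 CPM under the label KO+ZnO NPs, with a mean log2 change of -1.60 ± 0.20 (SE, adjusted p = 0.000175). Its relative *Thbs1* did not pass for the mean change, at -0.56 ± 0.40 (SE, adjusted p = 0.262), and had 0.37 ± 0.56 in WT and -1.50 ± 0.58 in KO.

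Melanocyte genes rose in the mean change, by unequal amounts in the genotypes. Of 16 tested 13 rose and 1 fell, at a median of 4.66 in WT and 1.76 in KO, and 9 differed between genotypes. *Mc1r*, the receptor for melanocyte-stimulating hormone, read 0.252, 0.351 and 0.382 CPM in WT, 3.76, 13.2 and 9.22 CPM under the label WT+ZnO NPs, 0.638, 0.763 and 1.45 CPM in KO and 3.36, 2.32 and 4.75 CPM under the label KO+ZnO NPs. All treated libraries lay above all vehicle libraries, and the change was 4.70 ± 0.55 in WT and 1.87 ± 0.49 in KO. *Slc45a2*, a transporter of the pigment granule, was shared as well, with 5.62 ± 0.71 and 2.07 ± 0.60. *Mitf*, which encodes a transcription factor of melanocytes that other cells also express, was shared downward, with -0.50, and was named after its values were seen. *Mlana* read 0.42, 0.421 and 0.595 CPM in WT, 21.9, 68.5 and 56.4 CPM under the label WT+ZnO NPs, 6.25, 2.21 and 5.06 CPM in KO and 19.4, 12 and 8.1 CPM under the label KO+ZnO NPs and narrowly missed the test in KO (adjusted p = 0.0536). Genes of hair growth moved beside them, and their part in the melanocyte values was not tested. Of 30 regulators of hair follicle growth 24 rose and 3 fell, with medians of 2.98 in WT and 0.41 in KO, and the shared one was *Wnt10a* (0.76), a Wnt ligand named after its values were seen, which at 1 of 30 is near the 3.18% of all genes tested that were shared upward. Of the 16 melanocyte genes 2 were shared upward and 1 downward, where 6.46% of all genes tested were shared downward, and 23.6% of all genes rose in the mean change. *Lef1*, a transcription factor of Wnt signalling, had 5.61 ± 0.71 in WT and 1.30 ± 0.59 in KO (adjusted p = 0.151). With the inner root sheath level in the fit, the mean log2 change was 3.27 for *Mc1r* and 3.2 for *Slc45a2* (edgeR adjusted p = 0.004 and 0.00628).

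Other lists had no shared member. Hair shaft keratins (7 of 13 up), the inner root sheath (7 of 9 up) and keratin-associated proteins (4 of 52 up) had 0 shared in each. They were near 0 in the WT libraries, where members of each held few or no counts, so that no median fold is given. The summed levels of the 3 lists were at most 5.78, 8.2 and 2.18 CPM in WT and at least 575, 833 and 284 CPM under the label WT+ZnO NPs. In KO they ranged from 3.01 to 1970, 22.8 to 12600 and 1.69 to 4170 CPM, while those under the label KO+ZnO NPs ran from 40.8 to 1540, 223 to 9020 and 8.14 to 1940 CPM, within the range of KO. Of 23 immediate early genes 9 rose, with medians of 1.93 in WT and 0.02 in KO, and *Egr1* had 4.16 ± 0.66 in WT and 0.02 ± 0.58 in KO. *Jun* had 2.73 ± 0.57 and 0.22 ± 0.54. Of 17 adipocyte genes 7 fell, with medians of -2.16 in WT and -0.23 in KO. Among 19 clock genes 2 rose and 4 fell, among 11 glucocorticoid receptor targets 2 rose and 1 fell, among 9 muscle atrophy regulators 3 rose, among 8 smooth muscle genes 3 rose, among 9 Schwann cell genes 3 rose and 1 fell, among 4 stress keratins 1 rose and 2 fell, among 30 junction genes 4 rose and 4 fell, and among 5 erythroid genes 0 passed. Over the 16 lists with 0 shared members, mast cells, muscle and heat shock included, edgeR gave an unadjusted p below 0.05 in both genotypes for 11 of 259 genes upward and 1 downward, where 8.43% of all genes tested had this upward and 11.6% downward. These lists were picked for having 0 shared members, which by itself keeps their counts low, so that nothing is read from the difference. *Fkbp5*, a glucocorticoid-induced immunophilin, read 152, 77.8 and 107 CPM in WT, 74.8, 94.6 and 73.9 CPM under the label WT+ZnO NPs, 175, 155 and 83.8 CPM in KO and 342, 345 and 343 CPM under the label KO+ZnO NPs, with -0.47 ± 0.28 in WT and 1.32 ± 0.28 in KO (adjusted p = 0.0167). *Trim63*, a ubiquitin ligase of wasting muscle, had 0.00 ± 0.46 and 2.25 ± 0.48.

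A small set passed in both genotypes with opposite signs. *Pdk4*, a kinase that limits the use of glucose for energy, read 206, 146 and 102 CPM in WT, 61.4, 50.5 and 49.4 CPM under the label WT+ZnO NPs, 70.7, 41.3 and 81.1 CPM in KO and 242, 332 and 377 CPM under the label KO+ZnO NPs. Its log2 change was -1.49 ± 0.30 in WT and 2.30 ± 0.31 in KO. *Ifi27l2a*, an interferon-stimulated gene, read 562, 595 and 480.3 CPM in WT, 40, 29.4 and 58.1 CPM under the label WT+ZnO NPs, 41, 24 and 23 CPM in KO and 59.6, 59.7 and 121 CPM under the label KO+ZnO NPs, with -3.68 ± 0.37 in WT and 1.45 ± 0.35 in KO. *Gm6109* had at most 0.949 CPM in any library, with at most 3 counts in each WT and each KO+ZnO NPs library, and is given no fold. These were the 3 genes with the smallest interaction p among the 40.

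**Figure D4:**
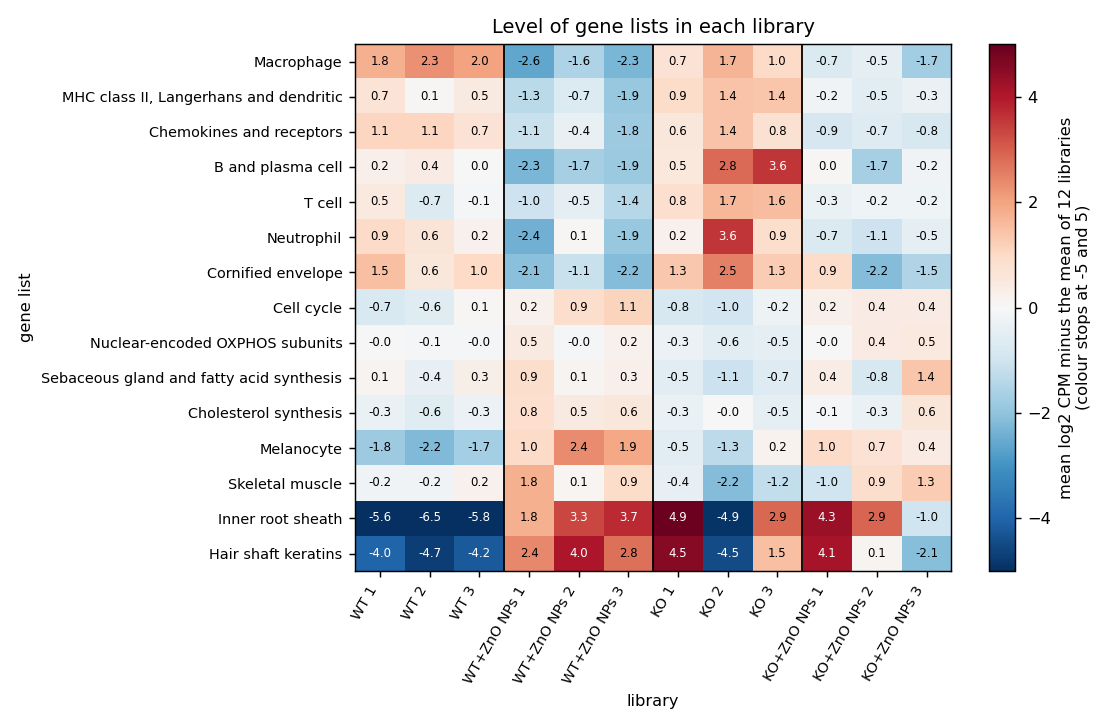
Rows are 15 gene lists and columns the 12 libraries, and each cell gives the mean log2 CPM of the list minus its mean over the libraries, in red above and in blue below. Macrophage genes separate the 6 treated from the 6 vehicle libraries, as do cell cycle genes, whereas the inner root sheath row is low in WT 1 to 3 and KO 2 and high in KO 1, KO 3 and most treated libraries.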

How the data were processed

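Whole skin of 12 mice, 3 in each of 4 groups, was sequenced as poly-A selected RNA. The authors deposited raw read counts per gene. Per the study's methods reads were filtered, aligned with STAR and counted with HTSeq, whereas the submitters' processing notes name HISAT2 2.0.5 and mm10. Which annotation release was used, and whether strand was, is not given in the sources used here. Of 52636 gene IDs, 52489 were matched to names. Total counts were 21076320 to 28867802 per library, and every replicate pair differed by more than counting noise.

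From these counts, edgeR 4.0.16 (R 4.3.3) was fitted to all 12 libraries with 1 coefficient per group, TMM factors and filterByExpr, followed by quasi-likelihood F tests, with p-values adjusted by Benjamini and Hochberg's method and called at 0.05. Contrasts were each within-genotype change, their mean and their difference. The scripts were tested on simulated data. Alternatives were RLE or no composition factors, DESeq2 1.42.0, other filters and designs, covariates and leaving out each library.

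The members and lists were chosen with earlier results of these data known. Named genes were the 12 largest shared changes each way by the smaller of the 2 changes (protein-coding, mean of at least 10 CPM, no overlap within a genotype), up to 4 members per list with the smallest p, 7 genes named whatever their values, and the 3 of opposite sign with the smallest interaction p. Some genes that the rule names are not reported here.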

Additional observations from a re-analysis of the deposited data

Results flagged for a closer look

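For the genes below, the change differed between the genotypes by the interaction test (edgeR quasi-likelihood, adjusted p below 0.05), and each difference below is the log2 change in KO minus that in WT. Both changes were falls, larger in WT, for the myeloid genes *Ccr1* (2.615), *Pik3ap1* (2.526), *Fcgr1* (4.147), *Adgre1* (2.71), *Cd68* (2.106) and *C1qb* (2.202), for *Cd40* (1.758) and for *Sod3* (2.009), as for the interferon-stimulated gene *Oas2* (2.27). Both were rises, larger in WT, for the melanocyte genes *Mc1r* (-2.838) and *Slc45a2* (-3.555). *Mlana* (-5.116), *Lef1* (-4.31), a regulator of hair follicle growth, and the immediate early gene *Egr1* (-4.143) passed upward in WT and not in KO. The interferon-stimulated genes *Oas1a* (3.848) and *Ifit3* (4.821) and the ferritin gene *Ftl1* (1.488) fell in WT and missed the test in KO. *Fkbp5* (1.786) passed upward in KO and not in WT. *Pdk4* (3.794) and *Ifi27l2a* (5.132) changed in opposite directions. *Gm6109*, which is given no fold, passed the interaction test as well. The libraries labelled WT+ZnO NPs also differ from WT in *Cdc42*, Y-linked transcripts and inner root sheath level. Their *Cdc42* lay below that of WT and of KO. None of these differences can be told apart from ZnO NPs in the WT comparison.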

How the results depend on the processing

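The count of shared genes (1814, 598 up and 1216 down) depended on the processing more than that of the mean change (8825). RLE factors gave 1781, library size alone 1829 and at least 10 counts in every library 1790. DESeq2 gave 2795 (1047 up, 4372 called in KO), each genotype fitted alone 464 (87 up, 377 down, 552 in KO), and no filter on low counts 311 up. The level of Y-linked genes as a covariate gave 1188 (323 up). A minimum fold of 1.5 gave 266 (19 up, 247 down, 310 in KO), with 2906 for the mean change (980 up, 1926 down) and 88 list members up and 173 down. Leaving out each library gave 381 to 1892 shared genes, 66 to 673 up and 315 to 1260 down, and 451 to 3195 called in KO. The lowest of each was without KO 2. Without KO 3 the values were 824, 228, 596 and 1055, without KO+ZnO NPs 2 1066, 356, 710 and 1484, and the rises were 343 without WT 1, 364 without WT 2, 388 without WT+ZnO NPs 3 and 352 without KO 1. Of 3 covariates chosen after seeing the data, the inner root sheath level gave 682 shared genes (130 up, 552 down), 3842 for the mean change (1534 up, 2308 down) and 116 list members up and 154 down. The muscle level gave 0 shared genes, 0 up and 0 down, 0 called in KO, 4315 for the mean change (1939 up, 2376 down) and 130 list members up and 138 down. The macrophage level, which separates all treated from all vehicle libraries, left 0 genes in each of these counts by edgeR, with 2911 at an unadjusted p below 0.05 for the mean change. The KO libraries without Y-linked transcripts gave 0 called and 4013 at an unadjusted p below 0.05. The median of the skeletal muscle list became -0.178 with the muscle level in the fit, and that of the hair shaft keratins -0.439 with the inner root sheath level. With the macrophage level 1383 of the 1814 shared genes kept their sign in both genotypes, and that alternative was not evaluated for the named genes. None of the named genes reversed its mean change in the other alternatives. In these 66 of their values lost the call, mostly with the minimum fold (17), the muscle level (16) or the inner root sheath level (13), and 1 gained it. *Slc30a1* was the least stable, with its mean log2 change of 0.75 losing the call in 15 alternatives, among them 10 of the 12 fits without 1 library (0.61 to 0.95), and falling to 0.11 with the inner root sheath level. With the replicate number as a block 1828 genes were shared, 1549 of them among the 1814. Of 18 same-numbered pairs 4 correlated above 0.1 (median r = 0.0336), and KO 1 with KO+ZnO NPs 1, both with Y-linked transcripts, had r = 0.429. With 3 libraries per group such correlations cannot settle whether the numbers pair the mice, so that no pairing was assumed. With 3 mice in each group, a gene that missed the test in KO was not shown to be unchanged there. Why fewer genes passed in KO than in WT was not tested, and neither were the causes of these changes.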
